A study of Mus musculus with 12 samples.

Results

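*Sesn1*, *Sesn2*, *Gls2*, *Fdxr*, *Ddit4*, *Prkab1*, *Dram1* and *Gdf15* are 8 genes of metabolism and stress that are known as targets of the transcription factor P53. They were taken by symbol, and all 8 were found among the 24881 symbols of the expression table. Their levels were compared in mouse R1 ESCs that carry FUCCI reporters (fluorescent proteins that mark the cell cycle phases) and that were all sorted in G1 phase. WT and P53KO cells were grown either in serum with LIF (serum ESCs) or in 2i, which is N2B27 medium with LIF, the MEK inhibitor PD0325901 and the GSK3 inhibitor CHIR99021 (2i ESCs). Each of these 4 groups had 2 libraries of total RNA depleted of ribosomal RNA, with values in FPKM, which are fragments per kilobase of transcript scaled to the sequenced fragments of a library. The P53KO ESCs were 2 independent clones made with CRISPR-Cas9 by cutting an exon common to the *Trp53* isoforms, and the clone behind each library is not given in the table. The values of single clones therefore cannot be told apart, and the p-values measure only the spread between these libraries.

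P53 is best known for arrest and apoptosis, but it also binds genes that adjust metabolism under stress. *Sesn1*, *Sesn2*, *Ddit4* and *Prkab1* act on the balance between AMPK, the kinase that senses low energy, and mTORC1, the kinase complex that drives growth. *Gls2* and *Fdxr* encode mitochondrial enzymes, *Dram1* a lysosomal membrane protein of autophagy, and *Gdf15* a secreted stress cytokine. Several of these genes, *Ddit4*, *Sesn2* and *Gdf15* among them, are also known to answer to ATF4, the transcription factor of the integrated stress response, or to low oxygen.

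Promoter sequences are given for the 3 genes whose level fell in P53KO ESCs in at least 1 of the comparisons that follow, for *Sesn1*, which passed in none of them, and for *Ddit4l*, the paralog of *Ddit4*. They come from RefSeq windows of GRCm38.p6 that span 250 bases before to 50 bases after a gene's start. A window was found for 7 of the 8 genes and for all 4 paralogs read here. The 250 bases before the start are printed 5' to 3' on the gene's strand, and capitals mark a P53 half-site, a CCAAT box (CCAAT) or the core of the hypoxia response element (ACGTG) on either strand.
Ddit4, chr10:59951771-59952020, minus strand: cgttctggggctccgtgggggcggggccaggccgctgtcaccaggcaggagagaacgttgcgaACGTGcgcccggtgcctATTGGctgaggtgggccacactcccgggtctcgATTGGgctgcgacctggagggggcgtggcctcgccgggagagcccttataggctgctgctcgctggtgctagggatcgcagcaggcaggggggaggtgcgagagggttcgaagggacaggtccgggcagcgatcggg
Sesn2, chr4:132510457-132510706, minus strand: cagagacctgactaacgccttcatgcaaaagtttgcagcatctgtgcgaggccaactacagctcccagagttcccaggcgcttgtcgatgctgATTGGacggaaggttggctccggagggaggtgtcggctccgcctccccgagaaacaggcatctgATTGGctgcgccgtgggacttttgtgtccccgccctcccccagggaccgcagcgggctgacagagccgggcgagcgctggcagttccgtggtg
Gdf15, chr8:70632457-70632706, minus strand: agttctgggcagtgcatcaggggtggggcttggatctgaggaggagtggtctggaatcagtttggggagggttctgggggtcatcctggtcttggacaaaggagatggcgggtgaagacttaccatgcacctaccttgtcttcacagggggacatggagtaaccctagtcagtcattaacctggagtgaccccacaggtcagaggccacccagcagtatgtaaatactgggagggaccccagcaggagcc
Sesn1, chr10:41887189-41887438, plus strand: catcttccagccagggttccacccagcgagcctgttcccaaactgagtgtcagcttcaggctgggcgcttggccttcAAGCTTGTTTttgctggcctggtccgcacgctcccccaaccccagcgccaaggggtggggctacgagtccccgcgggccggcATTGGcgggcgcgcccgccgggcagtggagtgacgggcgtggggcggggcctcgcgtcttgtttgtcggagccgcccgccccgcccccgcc
Ddit4l, chr3:137623422-137623671, plus strand: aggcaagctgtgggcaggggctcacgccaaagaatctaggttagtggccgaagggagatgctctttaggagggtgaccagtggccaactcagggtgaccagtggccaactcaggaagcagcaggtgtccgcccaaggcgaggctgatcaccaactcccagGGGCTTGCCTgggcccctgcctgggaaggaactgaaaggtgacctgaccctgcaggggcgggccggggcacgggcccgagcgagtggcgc
The *Ddit4* window held the CCAAT box at -170 and -137 and ACGTG at -187, counted from the start, and that of *Sesn2* held the CCAAT box at -157 and -93. The *Gdf15* window printed here held none of these motifs. A second *Gdf15* window, which begins at another start, held the CCAAT box at -6 and ACGTG on both strands of 1 shared site, at -83 and -82. A match to the P53 half-site was found in 1 of the *Sesn1* windows, as AAGCTTGTTT at -173, and in the window of *Ddit4l*, as GGGCTTGCCT at -90, and in no other window of the members or paralogs. Over all 32851 windows the half-site was found in 8.36%, CCAAT in 37.4% and ACGTG in 19.6%. The CARE core of ATF4 sites (TGATGNAA, in 3.97% of all windows) was in none of the members' or paralogs' windows, and the TATA box (TATAAA, in 13.6%) was in that of *Ddit4l* alone, at 36 bases after the start and so outside the printed bases. These matches describe letters in short windows and were not compared with binding.

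The targeted gene was lower in the P53KO libraries, though its RNA was not absent. *Trp53* was at 26.8 and 33.7 FPKM in WT 2i, 7.25 and 1.88 in P53KO 2i, 77.6 and 75.1 in WT serum, with 16.8 and 3.68 in P53KO serum, without overlap in either culture (log2 fold change -2.98, adjusted p = 0.0547 in 2i, and -3.26, adjusted p = 0.15 in serum, by limma). All 10 markers of ESCs, *Pou5f1*, *Sox2* and *Nanog* among them, were at 11 FPKM or more in every group. In 2i 1 of the 10 was called, beside 10.3% of all genes. It was *Klf4*, a pluripotency factor, at 48.2 and 48.3 FPKM in WT and 23.2 and 26.3 in P53KO (-0.96, adjusted p = 0.00782 by limma). Of the 10, 9 were below 0 on the log2 scale in P53KO 2i, and 4 were at an unadjusted p under 0.05. Their median was -0.30, beside 0.02 over all genes. The shares of all genes below 0 or at that unadjusted p were not computed. In serum none of the 10 was called, beside 1.02% of all genes, and 1 was at an unadjusted p under 0.05. The median there was -0.03, beside 0.02 over all genes. Depth, read from the steps between low FPKM values, came to 5200000 to 13300000 fragments per library up to a factor common to all libraries, so counting error was not given as intervals. Of the 8 genes, 7 had a mean of at least 0.5 FPKM and were tested by limma among 12572 genes, and a call means an adjusted p under 0.1 with a fold change over 1.5. An exact test of 2 against 2 libraries cannot give a two-sided p below 0.33, so single genes rest on the spread that limma shares over genes.

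Sums of markers of other cells, at low levels, differed between the groups. The summed FPKM of 9 mesoderm, neural and trophoblast markers was 7.02 to 8.14 in WT 2i and 3.85 to 5.07 in P53KO 2i, and 6.16 to 7.6 in WT serum and 3.56 to 4.88 in P53KO serum. Only 4 of these 9 were tested, and none was called for P53 loss in 2i, in serum or in the average over cultures. That of 7 fibroblast markers was 0.761 to 1.34 in 2i and 7.73 to 10.5 in serum. The serum sum was almost all *Thy1*, the 1 marker at 1 FPKM or more and the only 1 tested, at up to 8.21 FPKM in WT and 10.5 in P53KO. *Col3a1* and *Postn* were at 0 in serum, and *Thy1* was not called for P53 loss. The sum of 7 primitive endoderm markers was 1.28 to 4.36, with the lower sums in P53KO, and *Gata4*, the 1 of them that was tested, was called lower in the average over cultures (-1.12, adjusted p = 0.0753 by limma). Their part in the differences of the 8 genes was not tested, and in such bulk samples fewer cells of a type and less RNA per cell cannot be told apart.

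**Figure D1:**
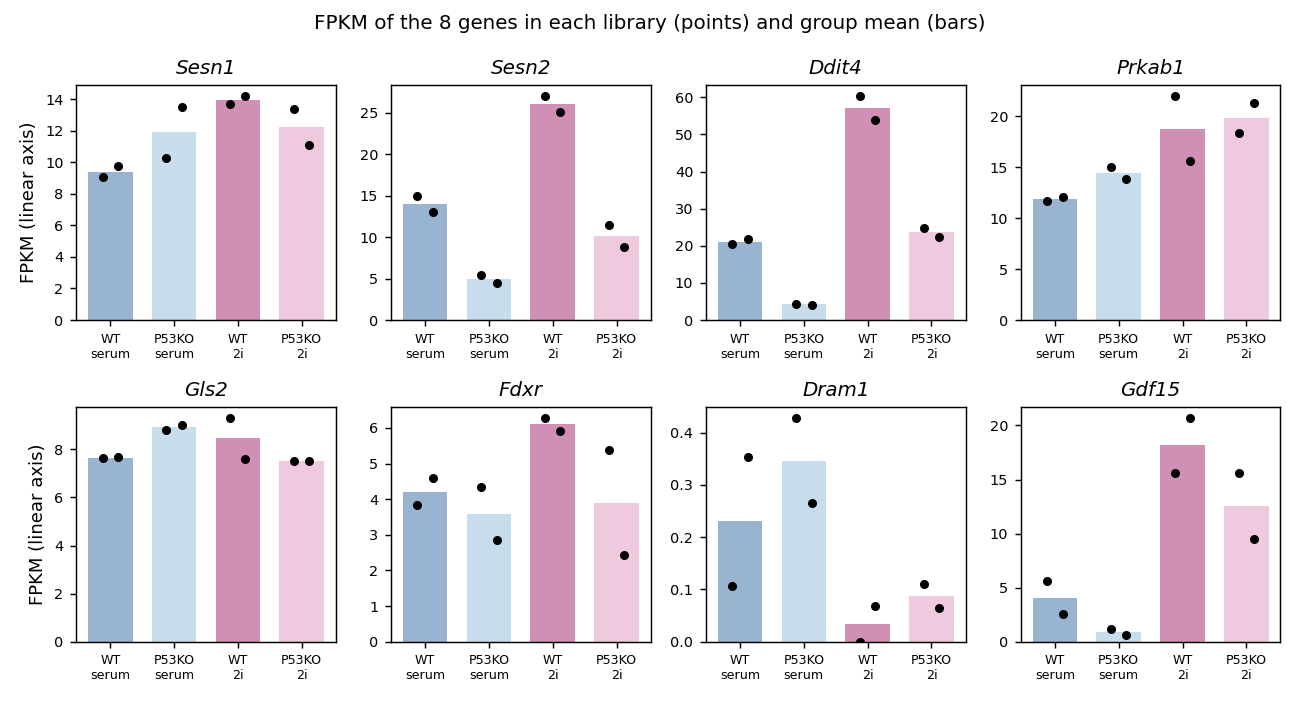
FPKM of each of the 8 genes on linear axes that start at 0, with points for the 2 libraries of each group and bars for their mean. The P53KO bars of *Ddit4* and *Sesn2* are below the WT bars of the same culture, *Gdf15* stands far higher in 2i than in serum, and *Dram1* stays under 0.5 FPKM.

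Among these genes P53 loss came with lower RNA of the mTORC1 inhibitors *Ddit4* and *Sesn2* in each culture. In 2i, 2 of the 7 tested genes were called and both were lower, beside 10.3% of all genes called, of which 5.97% were lower and 4.36% higher. In serum the same 2 genes were called lower, beside 1.02% of all genes, with 0.883% lower and 0.135% higher. *Gdf15* joined them when the P53 effect was averaged over both cultures, where 6% of all genes were called, 4.02% lower and 1.98% higher. *Sesn1*, *Gls2*, *Fdxr* and *Prkab1* passed in none of these comparisons. The median log2 fold change of the 7 genes was -0.56 in 2i and -0.25 in serum, beside 0.02 over all genes in each culture.

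*Ddit4* (REDD1) restrains mTORC1 through the TSC complex. Its level was 60.3 and 53.8 FPKM in WT 2i against 24.8 and 22.4 in P53KO 2i. In WT serum it was 20.4 and 21.7 FPKM, and in P53KO serum 4.37 and 4.01. P53KO libraries lay below WT in both cultures without overlap, and the P53KO mean came to 41.4% of the WT mean in 2i and 19.9% in serum. P53 loss changed it by -1.27 on the log2 scale in 2i (SE 0.13, 95% interval -1.56 to -0.98, adjusted p = 0.00218 by limma). In serum it was -2.30 (SE 0.13, interval -2.60 to -2.01, adjusted p = 0.000244 by limma), and neither call ended in any of 11 other settings or without any 1 library. The order of the groups was WT 2i, P53KO 2i, WT serum and P53KO serum. P53KO 2i, at 23.6 ± 1.66 FPKM, stood next to WT serum, at 21.1 ± 0.911 (SD, n = 2 each), a pair that was not tested.

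*Sesn2* encodes a leucine sensor that restrains mTORC1 through the GATOR complexes. It was at 27 and 25.1 FPKM in WT 2i against 11.5 and 8.75 in P53KO 2i, and at 15 and 13 in WT serum, with 5.37 and 4.46 in P53KO serum. No group overlapped another, and the order was WT 2i, WT serum, P53KO 2i and P53KO serum. P53KO held 38.8% of the WT mean in 2i and 35.1% in serum. The log2 fold change was -1.37 in 2i (SE 0.18, interval -1.78 to -0.96, adjusted p = 0.00606 by limma) and -1.49 in serum (SE 0.18, interval -1.90 to -1.09, adjusted p = 0.0112). The serum call ended when P53KO serum library 2, WT serum library 1 or WT serum library 2 was left out, with adjusted p of 0.108, 0.171 and 0.116 by limma. It also ended in each culture when only the groups compared were fitted (adjusted p = 0.101 in 2i and 0.133 in serum), while the fold change stayed at the same value.

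*Sesn1*, the other sestrin of the list, was at 13.7 and 14.2 FPKM in WT 2i, 13.4 and 11.1 in P53KO 2i, 9.05 and 9.78 in WT serum, with 10.3 and 13.5 in P53KO serum. P53KO lay below WT in 2i and above it in serum, without overlap, and the P53KO groups of both cultures overlapped each other. Neither difference passed: the log2 fold change was -0.19 in 2i (interval -0.58 to 0.20, adjusted p = 0.526 by limma) and 0.33 in serum (interval -0.06 to 0.72, adjusted p = 0.506).

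*Prkab1* encodes the beta 1 subunit of AMPK, which anchors the catalytic and regulatory subunits. It was at 22 and 15.6 FPKM in WT 2i, 18.4 and 21.3 in P53KO 2i, 11.7 and 12.1 in WT serum, with 15 and 13.9 in P53KO serum. In 2i the P53KO libraries lay within the range of WT, and in serum they lay above it. Its log2 fold change was 0.10 in 2i (interval -0.31 to 0.51, adjusted p = 0.789 by limma) and 0.28 in serum (interval -0.13 to 0.69, adjusted p = 0.586), and in 2i its sign turned to -0.15 with the median of each chromosome centred.

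The mitochondrial members did not pass. *Gls2*, a glutaminase that feeds glutamate and glutathione synthesis, was at 9.31 and 7.6 FPKM in WT 2i, 7.5 and 7.53 in P53KO 2i, 7.64 and 7.67 in WT serum, with 8.82 and 9.02 in P53KO serum. Its range over all 8 libraries was the narrowest of the 7 tested genes, P53KO lay below WT in 2i by a small margin, and it lay above WT in serum. Its log2 fold change was -0.16 in 2i (interval -0.50 to 0.18, adjusted p = 0.541 by limma) and 0.22 in serum (interval -0.12 to 0.56, adjusted p = 0.61). Exons of *Gls2* overlap those of *Spryd4* on the other strand, and whether fragments were counted by strand is not given in the sources used here.

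*Fdxr*, the ferredoxin reductase of steroid and iron-sulfur cluster synthesis, was at 6.28 and 5.91 FPKM in WT 2i, 5.37 and 2.43 in P53KO 2i, 3.85 and 4.58 in WT serum, with 4.34 and 2.85 in P53KO serum. The P53KO libraries of 2i lay below WT but far apart from each other, and those of serum overlapped WT. The log2 fold change was -0.74 in 2i (interval -1.57 to 0.09, adjusted p = 0.249 by limma) and -0.25 in serum (interval -1.08 to 0.58, adjusted p = 0.836). The 2i difference rested on which P53KO library was kept: without P53KO 2i library 1 it was -1.29 and was called (adjusted p = 0.0854 by limma), and without P53KO 2i library 2 it was -0.18 (adjusted p = 0.795). Without P53KO serum library 2 the serum difference turned to 0.05.

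*Gdf15* was at 15.6 and 20.7 FPKM in WT 2i against 15.6 and 9.49 in P53KO 2i, which overlapped. In WT serum it was at 5.59 and 2.55 FPKM and in P53KO serum at 1.17 and 0.592, and these groups did not overlap. The P53KO mean was 69.3% of WT in 2i and 21.6% in serum. The log2 fold change was -0.56 in 2i (SE 0.44, interval -1.57 to 0.45, adjusted p = 0.477 by limma) and -2.05 in serum (SE 0.44, interval -3.06 to -1.04, adjusted p = 0.122), where 1 of 11 other settings, without the small RNA genes, called it (adjusted p = 0.0446). Leaving out 1 library gave values of -0.91 to -0.20 in 2i and, in serum, of -2.60 to -1.5. Averaged over both cultures *Gdf15* fell by 1.3 on the log2 scale (SE 0.31, adjusted p = 0.0507 by limma). That call ended without P53KO 2i library 2, WT 2i library 2, P53KO serum library 2 or WT serum library 1, with adjusted p of 0.163, 0.113, 0.147 and 0.196.

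*Dram1* lay below the filter of 0.5 FPKM and was not among the 7 tested genes. It was at 0 and 0.0681 FPKM in WT 2i, 0.111 and 0.0655 in P53KO 2i, 0.107 and 0.353 in WT serum, with 0.428 and 0.265 in P53KO serum, which corresponds to 0 to 14.6 estimated fragments in a library, up to the common factor given above for depth. The genotypes overlapped in both cultures, while the 2i libraries lay below the serum libraries in each genotype. With all genes above 0 tested, P53KO against WT was 0.53 in 2i and 0.52 in serum (SE 0.48 each, adjusted p = 0.58 and 0.79 by limma). In that setting 2i against serum was -1.24 in WT and -1.23 in P53KO (SE 0.48 each, adjusted p = 0.075 and 0.0734 by limma), which passed.

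**Figure D2:**
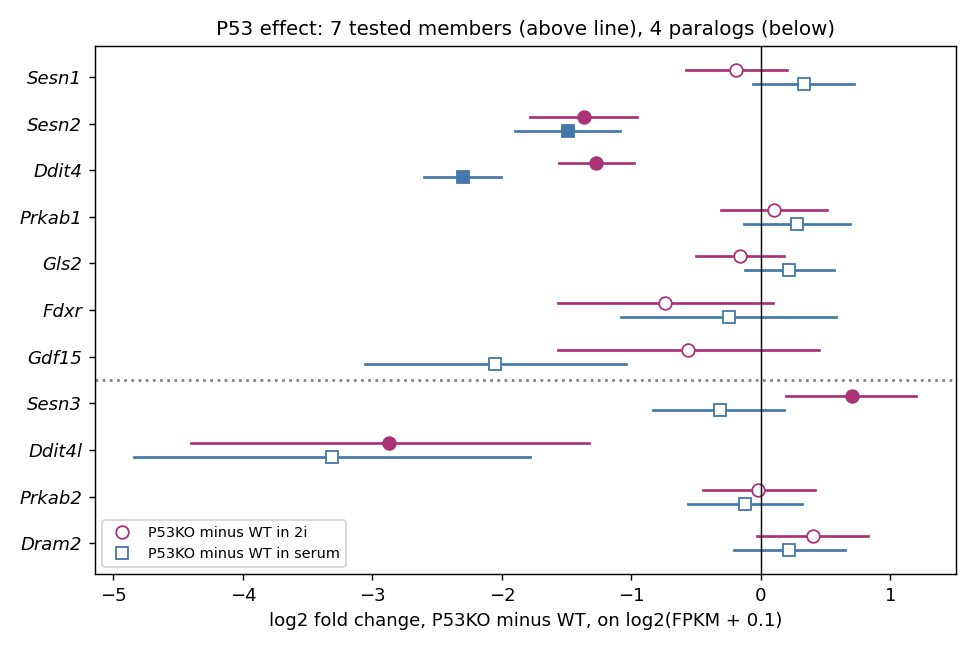
Log2 fold change of P53KO against WT on the log2(FPKM + 0.1) scale for the 7 tested genes (above the dotted line) and 4 paralogs (below it), with 95% intervals, circles for 2i and squares for serum, and filled symbols for called genes. *Ddit4* and *Sesn2* are filled in both cultures, and the *Gdf15* interval spans 0 in 2i but not in serum.

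Counted by separation alone, 5 of the 7 genes had both P53KO libraries below both WT libraries in 2i, beside 24.7% of all genes, and none had them above, beside 29%. In serum 3 genes lay wholly below, beside 21.8% of all genes, and 3 wholly above, beside 25.7%. *Ddit4* and *Sesn2* were wholly below in both cultures, beside 9% of all genes, and no member was wholly above in both, beside 10.5%.

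Paralogs of the members were read beside them. *Ddit4l* (REDD2), which like *Ddit4* restrains mTORC1, was at 3.27 and 4.08 FPKM in WT 2i against 0.152 and 0.947 in P53KO 2i. In serum it was at 2.25 and 2.14 FPKM in WT and 0.059 and 0.235 in P53KO. P53KO held 15% of the WT mean in 2i and 6.71% in serum, without overlap. In log2 terms the change was -2.87 in 2i (SE 0.66, adjusted p = 0.0449 by limma) and -3.31 in serum (SE 0.66, adjusted p = 0.107), and the averaged effect was -3.09 (adjusted p = 0.0113). The 2i call ended without P53KO 2i library 1, either WT 2i library or either WT serum library (adjusted p = 0.113 to 0.133), and when only the groups compared were fitted (0.186). Its size in 2i ran from -3.89 to -1.84 with 1 library left out and was -1.64 with a pseudocount of 1. The serum value ran from -4.08 with a pseudocount of 0.01 to -1.48 with a pseudocount of 1, where it was called (adjusted p = 0.0698 by limma). It was also called without small RNA genes (0.0261) and without P53KO 2i library 1 or library 2 (0.0414 and 0.0464). The averaged call was kept without any 1 library and over the other settings, in which its size was -3.65 to -1.56.

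*Sesn3*, the remaining sestrin, went the other way in 2i, where it was at 7.9 and 7.57 FPKM in WT and 11.3 and 14.1 in P53KO. In serum it was at 5.06 and 4.43 FPKM in WT and 4.6 and 3.08 in P53KO, which overlapped. The 2i rise of 0.70 on the log2 scale (SE 0.22) was called at an adjusted p of 0.0976 by limma, at the edge of the threshold, and was kept in 4 of 11 other settings. It ended without any of the 2i libraries or either WT serum library (adjusted p = 0.154 to 0.361). *Prkab2* and *Dram2* were called in neither culture, with log2 fold changes in that order of -0.02 and 0.40 in 2i, and in serum of -0.12 and 0.22.

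The second question was whether the P53 effect differed between 2i and serum, which the interaction term tests as the effect in 2i minus that in serum. None of the 7 genes was called, by limma at an adjusted p under 0.1, beside 0.207% of all genes, with 0.103% in each direction. At an unadjusted p under 0.05 there were 2, *Ddit4* and *Gdf15*. The share of all genes at that unadjusted threshold was not computed, so this count has no background beside it. For *Ddit4* the interaction was 1.04 (SE 0.18, interval 0.62 to 1.45, unadjusted and adjusted p = 0.000461 and 0.115 by limma) with P53KO at 41.4% of WT in 2i and 19.9% in serum. With the median of each chromosome centred it was 1.06 and was called (adjusted p = 0.072). *Gdf15* had an interaction of 1.5 (SE 0.62, interval 0.07 to 2.92, unadjusted and adjusted p = 0.0421 and 0.363 by limma), which ran from 0.94 to 2.05 with 1 library left out and was 0.86 with a pseudocount of 1. *Sesn2* had an interaction of 0.12, with an interval of -0.45 to 0.70 (adjusted p = 0.88 by limma). For *Sesn1* and *Gls2*, whose P53KO libraries lay on opposite sides of WT in the 2 cultures, the interaction was -0.52 and -0.38 (adjusted p = 0.412 and 0.48 by limma).

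The third question was how culture sets the level of these genes in each genotype. In WT ESCs *Ddit4*, *Gdf15*, *Sesn2* and *Prkab1* were higher in 2i than in serum, 4 of 7 tested, beside 55.7% of all genes called, of which 27.2% were higher and 28.6% lower. In P53KO ESCs *Ddit4*, *Gdf15* and *Sesn2* were higher in 2i, 3 of 7, beside 58.2% called, 28% higher and 30.1% lower. None of the 7 tested genes was called lower in 2i in either genotype, and *Dram1*, which was not among them, had its 2i libraries below those of serum in both. The median difference of the 7 genes was 0.64 in WT and 0.45 in P53KO, beside -0.02 and -0.03 over all genes.

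*Gdf15* had the widest change with culture among the members. Its log2 difference between 2i and serum was 2.22 in WT (SE 0.44, interval 1.21 to 3.23, adjusted p = 0.00322 by limma) and 3.71 in P53KO (interval 2.70 to 4.72, adjusted p = 0.000239). *Ddit4* differed by 1.43 in WT (SE 0.13, adjusted p = 8.85e-05 by limma) and by 2.47 in P53KO (SE 0.13, adjusted p = 1.57e-05). *Sesn2* differed by 0.89 in WT (adjusted p = 0.00317 by limma) and by 1.02 in P53KO (adjusted p = 0.00155). All 3 genes were thus higher in 2i also where P53 was lost. *Prkab1* differed by 0.64 in WT (adjusted p = 0.0153 by limma), a call that ended without WT 2i library 1 (0.39), and by 0.45 in P53KO, which is under the fold threshold. *Sesn1* differed by 0.56 in WT, just under the fold threshold (interval 0.17 to 0.95, adjusted p = 0.0215 by limma), and by 0.04 in P53KO (interval -0.35 to 0.43). The WT difference was called after quantile normalization (0.68), with centred chromosome medians (0.61), and without WT 2i library 1 (0.59) or WT serum library 2 (0.62).

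*Fdxr* and *Gls2* did not pass between cultures. *Fdxr* differed by 0.53 in WT (interval -0.30 to 1.36, adjusted p = 0.235 by limma) and by 0.04 in P53KO, and *Gls2* differed by 0.13 in WT (interval -0.20 to 0.47) and by -0.24 in P53KO (interval -0.58 to 0.09). By separation alone, 6 of the 7 genes lay wholly higher in WT 2i than in WT serum, beside 40% of all genes, and none wholly lower, beside 41.7%. In P53KO 4 lay wholly higher, beside 39.7%, and *Gls2* wholly lower, beside 42.1%. The comparisons in 2i, in serum and between cultures share libraries and are not independent of each other.

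**Figure D3:**
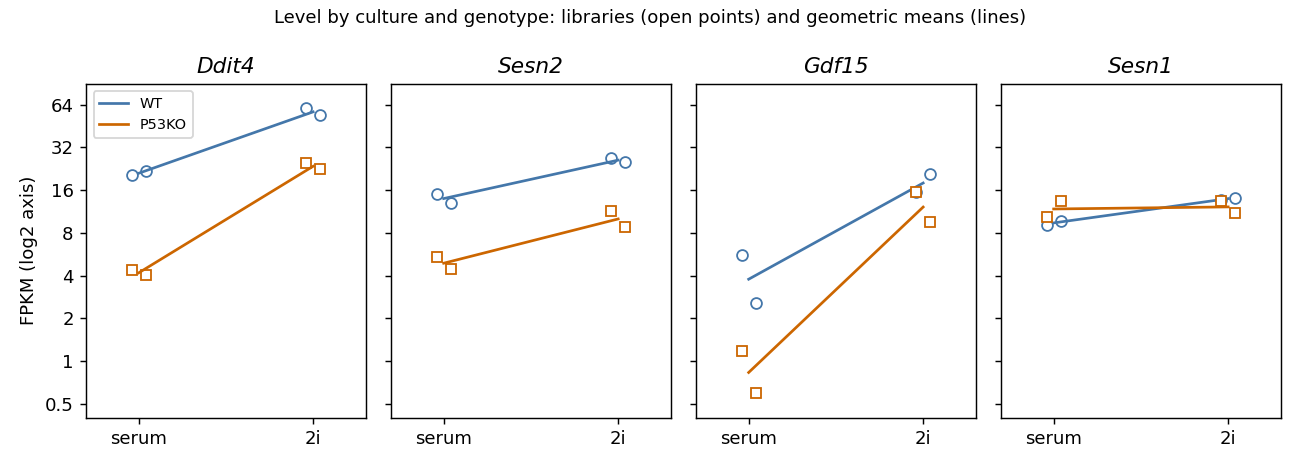
FPKM on a shared log2 axis for *Ddit4*, *Sesn2*, *Gdf15* and *Sesn1* in serum and 2i, with open points for libraries and lines joining the geometric means of WT (circles) and P53KO (squares). The lines of *Sesn2* run in parallel, those of *Ddit4* and *Gdf15* draw closer in 2i, and those of *Sesn1* cross.

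The order of the members by level, which FPKM allows since it is scaled by length, changed between groups. In WT 2i the mean FPKM ran from *Ddit4* (57 ± 4.56) through *Sesn2* (26 ± 1.38), *Prkab1* (18.8 ± 4.51), *Gdf15* (18.1 ± 3.58), *Sesn1* (13.9 ± 0.365), *Gls2* (8.45 ± 1.21) and *Fdxr* (6.1 ± 0.265) to *Dram1* (0.0341 ± 0.0482; SD, n = 2 each), and of these neighbours only *Prkab1* and *Gdf15* overlapped. In P53KO serum *Prkab1* came first (14.5 ± 0.793), followed by *Sesn1* (11.9 ± 2.28), *Gls2* (8.92 ± 0.14), *Sesn2* (4.92 ± 0.638), *Ddit4* (4.19 ± 0.259), *Fdxr* (3.6 ± 1.05), *Gdf15* (0.879 ± 0.406) and *Dram1* (0.347 ± 0.115), with overlap between *Ddit4* and *Fdxr*. *Ddit4* thus stood first in WT 2i and in P53KO serum came below *Prkab1*, *Sesn1*, *Gls2* and *Sesn2*.

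Genes whose pattern over the 8 libraries was most like each member were found by the root mean square difference of centred log2 values, as a description. *Sesn2* was followed most closely by *Slc4a11* (0.12) and *Trim11* (0.19), where the profile of *Sesn2* itself had a root mean square of 0.87. *Ddit4* was nearest to *Mmrn2* (0.32) and *Abhd4* (0.34), against 1.35 for its own profile, and *Gdf15* to *Cyp4f17* (0.35) and *Tgfbr2* (0.35), against 1.71. *Fdxr* (0.45) was nearest to *Arl5c* (0.16) and *Fndc3b* (0.17). *Sesn1*, *Prkab1* and *Gls2* varied little (0.24, 0.32 and 0.12), and their nearest genes were *Mrps11* and *Fam241b*, *Ankrd24* and *Gtf2b*, and *Sema4b* and *Thop1*, all at 0.06 to 0.09. Within the list, *Ddit4* and *Sesn2* were 0.58 apart and *Gdf15* and *Ddit4* 0.70 apart.

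The rest of the AMPK and mTORC1 axis had 3 calls in P53KO 2i. Of 34 tested genes of the kinases, the TSC, GATOR and Rag complexes and the mTORC1 effectors, 3 were higher in 2i and none lower, which is 8.82% beside 4.36% of all genes called higher and 10.3% called in either direction. In serum none was called by limma, beside 1.02% of all genes, with 3 at an unadjusted p under 0.05. Over other settings the count in 2i was 0 to 4. It was 2 with the median of each chromosome centred, and 0 when only the groups compared were fitted. *Rheb*, the GTPase that activates mTORC1, was at 34.4 and 30.5 FPKM in WT 2i against 50.6 and 61.2 in P53KO 2i, a log2 fold change of 0.78 (adjusted p = 0.0184 by limma). *Mios*, a GATOR2 subunit, had a log2 fold change of 0.92 (adjusted p = 0.0547). *Rragd*, a Rag GTPase, was at 6.66 and 9.42 FPKM in WT 2i against 23.9 and 26 in P53KO 2i, a log2 fold change of 1.64 (adjusted p = 0.0128 by limma). Their values in serum, 0.19, 0.31 and 0.42 on the log2 scale, did not pass. The median over the list was 0.07 in 2i and 0.04 in serum.

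Around the mitochondrial members 2 genes of each list were called in 2i. Of 23 genes of glutamine, glutathione and redox metabolism, *Gss* (log2 fold change 0.66, adjusted p = 0.0987 by limma) and *Gsr* (0.59, adjusted p = 0.0334), which make and reduce glutathione, were higher in 2i and none was lower, 8.7% beside 4.36% of all genes called higher and 10.3% in either direction, and none was called in serum, beside 1.02%, with 4 at an unadjusted p under 0.05. *Srxn1* and *Nqo1*, which act in the defence against oxidants, were called lower in the average over cultures (-0.62 and -0.74, adjusted p = 0.0496 and 0.0706 by limma). This was 8.7% of the list, beside 6% of all genes called and 4.02% called lower, and over other settings the count was 1 to 2. The log2 fold changes of *Srxn1* and *Nqo1* were -0.42 and -0.60 in 2i and, in serum, -0.81 and -0.87, which did not pass. Of 19 genes of ferredoxin and iron-sulfur cluster function, 2 were lower in 2i and none was higher. They were *Iba57*, an assembly factor, and *Cyp11a1*, which takes its electrons from the ferredoxin that *Fdxr* reduces (-1.37 and -1.18, adjusted p = 0.0477 and 0.0853 by limma). This was 10.5% of the list, beside 10.3% of all genes called in either direction and 5.97% called lower. In serum none was called, beside 1.02% of all genes, with 2 at an unadjusted p under 0.05. With 1 library left out the counts in 2i were 0 to 2 and 0 to 1, and with only the groups compared both were 0. The medians of the glutamine list were 0.13 in 2i and -0.12 in serum, and those of the ferredoxin list -0.03 and 0.05.

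Of 24 genes of autophagy and the lysosome, the setting of *Dram1*, 2 were lower in 2i, *Tfeb* (-0.60, adjusted p = 0.0858 by limma), the transcription factor of lysosomal genes, and *Uvrag* (-0.68, adjusted p = 0.0636). That is 8.33% of the list, beside 10.3% of all genes called and 5.97% called lower. None was called in serum, beside 1.02% of all genes, with 2 at an unadjusted p under 0.05. There *Tfeb* had a log2 fold change of 0.71 (adjusted p = 0.187 by limma). With 1 library left out the count in 2i was 0 to 2, over other settings it was 0 to 3, and the medians were 0.11 and 0.07.

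Other metabolic genes described as P53 targets held calls in each culture. Of 18 tested, 6 were lower in 2i and 3 in serum (3 to 7 and 1 to 4 with 1 library left out, 3 and 2 with only the groups compared), beside 5.97% and 0.883% of all genes, none was higher, and the medians were -0.23 and -0.14. *Trp53inp1*, a cofactor of P53 and of autophagy, was at 102 and 114 FPKM in WT 2i against 12.8 and 11.3 in P53KO 2i, and at 75.7 and 82.2 in WT serum against 5.57 in both P53KO serum libraries. *Cpt1c*, a carnitine palmitoyltransferase, was at 11.2 and 12 FPKM in WT 2i, 0.482 and 1.05 in P53KO 2i, 3.42 and 3.14 in WT serum, with 0.746 and 0.495 in P53KO serum. *Lpin1*, a phosphatidate phosphatase, had log2 fold changes of -1.34 in 2i and -2.18 in serum (adjusted p = 0.0172 and 0.00601 by limma). *Sco2*, *Aldh4a1* and *Uvrag*, the last shared with the autophagy list, were called lower in 2i (-1.05, -1.06 and -0.68) but not in serum (-0.31, -0.47 and -0.02). *Aldh4a1* lay below WT without overlap in serum too. Both *Sco2* and *Aldh4a1* were called lower in the average over cultures (-0.68 and -0.76, adjusted p = 0.0808 and 0.0072 by limma). The interaction did not pass for any gene of the list. For scale, 10 of 13 P53 targets of other functions were lower in 2i and 9 in serum, with medians of -2.24 and -1.83, and *Rrm2b*, *Xpc* and *Ddb2* were called in neither culture. Both target lists were chosen with results of these libraries known, so their counts are no independent evidence of direction.

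**Figure D4:**
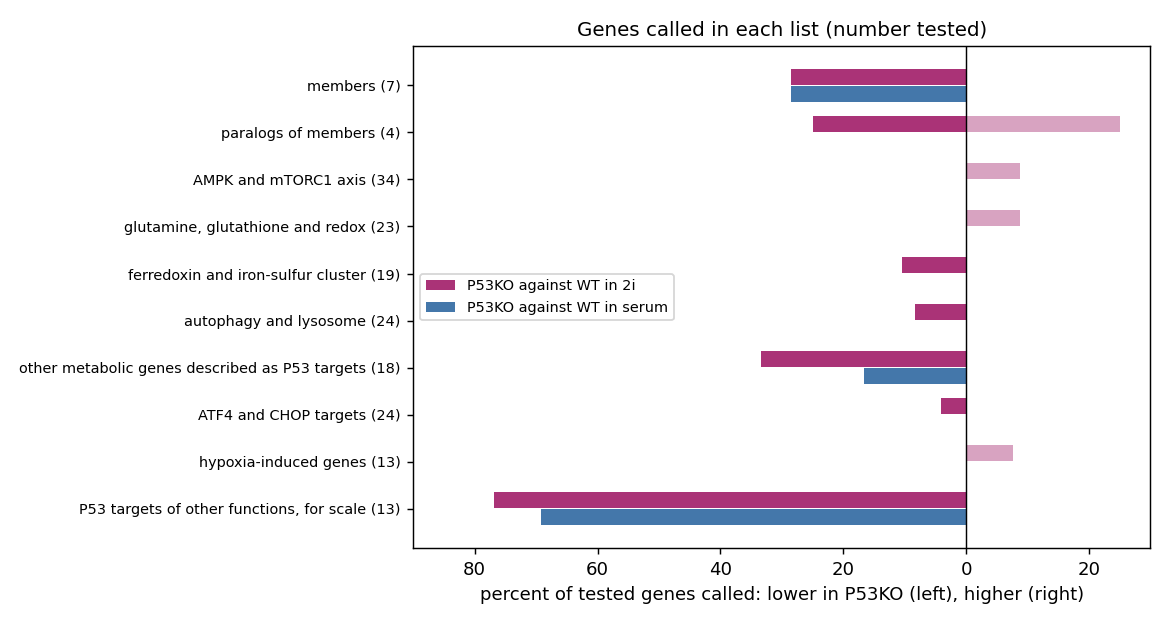
Percent of the tested genes of each list that were called lower (left of 0) or higher (right of 0) in P53KO, in 2i and in serum. The 7 members stand between the lists of their pathways, where at most 3 genes of a list were called, and the 13 P53 targets of other functions, of which 10 were called in 2i. The 18 other metabolic P53 targets, with 6 called in 2i and 3 in serum, stand there too. Of the 4 paralogs, 2 were called in 2i and none in serum.

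Genes of stress pathways that share targets with the list were read in the same way. Of 24 ATF4 and CHOP targets, *Atf3*, a stress-induced transcription factor, was the only gene called in 2i. It was at 31.5 and 25.7 FPKM in WT and 11.1 and 9.71 in P53KO (-1.45, adjusted p = 0.00435 by limma). This was 4.17% of the list, beside 10.3% of all genes called and 5.97% called lower, and the count was 1 in each other setting that kept all libraries. In serum none was called by limma, beside 1.02% of all genes, with 3 at an unadjusted p under 0.05. *Atf3* was there at 1.57 and 1.63 FPKM in WT and 1.3 and 1.39 in P53KO. Averaged over cultures *Atf3* was called lower (-0.84, adjusted p = 0.00891 by limma) and *Vldlr*, a lipoprotein receptor, higher (0.81, adjusted p = 0.094). These 2 are 8.33% of the list, beside 6% of all genes called, and over other settings the count was 1 to 3. Over the list the median was 0.22 in 2i and, in serum, -0.03. Between cultures the same list had 10 genes higher and 1 lower in 2i in WT, with a median of 0.57, beside 27.2% of all genes higher and 28.6% lower. In P53KO it had 14 higher and 1 lower, with a median of 1.10, beside 28% and 30.1%. Of 13 tested genes induced by hypoxia, *Bnip3*, a receptor of mitophagy, was higher in P53KO 2i (1.0, adjusted p = 0.0594 by limma), and none was lower. This was 7.69% of the list, beside 10.3% of all genes called in either direction and 4.36% called higher. In serum none of the list was called, beside 1.02% of all genes, with 3 at an unadjusted p under 0.05. With 1 library left out the count in 2i was 0 to 1, over other settings it was 0 to 3, and the medians were 0.31 and -0.18.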

How the data were processed

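RNA was measured in G1-sorted R1 FUCCI ESCs, 2 libraries in each of 4 groups. The authors deposited FPKM values for 24881 gene symbols. The submitters' processing notes name STAR, Cufflinks, DESeq2 and the mm9 build, with no role or version. Columns name genotype and culture only, so libraries are numbered in column order. The 4 samples of the P21 experiment, of 12 in the series, were not analysed here, and 0 columns of values were left unused.

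The members and lists were chosen with earlier results of these data known. Values were tested as log2(FPKM + 0.1) with limma 3.58.1 in R 4.3.3 in 1 fit of 4 groups, eBayes with trend, for the 12572 genes with a mean of at least 0.5 FPKM, with Benjamini-Hochberg adjustment over all of them. Fold changes on this scale understate changes of low genes. The call rule was a fold change over 1.5 with an adjusted p under 0.1. FPKM are not counts, so no count model was used. Small RNA genes, 1308 in number, made up 92.7% to 99.4% of each library's summed FPKM. Size factors computed by median ratio were 0.9908 to 1.0244 and were not applied in the tests reported.

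Named are all 8 members, *Trp53*, 4 paralogs, list and marker genes called in a P53 comparison, and some other markers. For each member the 2 genes of nearest profile are named too. The remaining P53 targets of other functions are given as counts. Lists were written by hand, and 1 gene of them is not reported here. Of all symbols, 98.2% matched GENCODE M21 (GRCm38), which was used for names, chromosomes and gene types, since no mm9 annotation was used here. Each test was repeated with pseudocounts of 0.01 and 1, with all genes above 0, a mean of at least 1 FPKM, median-ratio scaling, quantile normalization, no small RNA genes, centred chromosome medians, no trend, an adjusted p under 0.05 and each library left out, and the comparisons of 2 groups also with only those groups fitted. The fit was tested on simulated data. Figures were drawn with matplotlib 3.10.9, and summaries made with pandas 2.3.3 and numpy 2.4.6 under Python 3.11.15.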

Additional observations from a re-analysis of the deposited data

Results flagged for a closer look

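For *Sesn1* every P53KO library lay below WT in 2i (13.4 and 11.1 against 13.7 and 14.2 FPKM) and above WT in serum (10.3 and 13.5 against 9.05 and 9.78). The difference between these effects, -0.52 on the log2 scale, was tested by the interaction term of limma and did not pass (unadjusted p = 0.0624, adjusted p = 0.412). *Gls2* had the same arrangement of libraries, 7.5 and 7.53 against 9.31 and 7.6 FPKM in 2i and 8.82 and 9.02 against 7.64 and 7.67 in serum, with a difference of -0.38 (unadjusted p = 0.105, adjusted p = 0.48 by limma). The gap between the nearest *Gls2* libraries of 2i was under 0.1 FPKM.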

How the results depend on the processing

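*Ddit4* was called lower in both cultures in every setting and without any 1 library. Fitting only the compared groups left 1 member lower, *Ddit4*, in place of 2 in 2i and in serum. With 1 library left out the count of lower members ran from 1 to 2 in serum. Centring chromosome medians gave 1 member, *Ddit4*, with a called interaction in place of 0. Testing all genes above 0 gave 1 member lower in 2i than in serum, *Dram1*, in WT and in P53KO in place of 0. These settings differ in the genes or libraries tested or in their centring, and the cause was not tested further. The other counts of members stayed within 1.5 times.

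Signs turned for differences that passed in no setting. *Prkab1* in 2i was -0.15 with centred chromosomes and -0.15 to 0.34 with 1 library left out. *Prkab2* in 2i was 0.09 after quantile normalization and -0.16 to 0.12 with 1 library left out. The *Sesn2* interaction was -0.02 after quantile normalization and -0.07 to 0.32 with 1 library left out. Without small RNA genes *Sesn1* and *Fdxr* in P53KO each differed by -0.04 between cultures, and with 1 library left out by -0.15 to 0.24 and -0.52 to 0.59. With 1 library left out *Fdxr* in serum was -0.54 to 0.05, the interactions of *Fdxr* and *Prkab1* were -1.04 to 0.07 and -0.43 to 0.06, and *Gls2* in WT differed by -0.01 to 0.28 between cultures. No paired analysis was possible because the columns carry no replicate numbers. Estimated fragments in a library, known up to a factor common to all libraries, were 0 to 14.6 for *Dram1*, 8.8 to 114.7 for *Gdf15* in serum and 25.6 to 102.9 for *Fdxr*.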

Other observations

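The P53KO libraries of a culture differed in *Trp53* itself and in depth. *Trp53* was at 7.25 FPKM in P53KO 2i library 1 and 1.88 in library 2, with about 9700000 and 5400000 estimated fragments. It was at 16.8 FPKM in P53KO serum library 1 and 3.68 in library 2, with about 12200000 and 9600000 estimated fragments, where 1 unknown factor scales all libraries alike. Single libraries have no replicate, and these differences were not tested.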
